A study of Homo sapiens with 9 samples.

Results

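The probes described here were higher in both arrays of combined transfections than in every other array of the series. They were chosen from the authors' processed intensities: values under 16 were set to 16, the log2 was taken, and a probe was kept if the lower of its siRNA combination and miRNA combination values stood at least 1.5-fold over its highest value among the 7 remaining arrays. Of 47317 probes on the array, 19006 had a detection p under 0.01 on at least 1 array and were tested, and 181 of them were kept, which is 0.952%. This share only describes how strict the choice was. The distance between the lower combination value and the highest remaining value is called the margin below.

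All arrays measured KYSE30, an established human line of esophageal squamous cell carcinoma, transfected with Lipofectamine, with RNA taken on day 3. The 9 groups had 1 array each. They were an siRNA combination, a miRNA combination, the single microRNAs miR-32, miR-455, miR-181a and miR-181b, the single siRNAs siPIK3R1 and siPIK3R3, and a negative control. The sources used here do not say what either combination held, or at what dose. Because no group had a second array, no p-value and no replicate error can be had. An effect of the transfected RNA cannot be told apart from a difference between cultures or between arrays. In bulk RNA, fewer cells of a kind and less RNA per cell cannot be told apart either.

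A transfected microRNA or siRNA is loaded into the RNA-induced silencing complex and lowers transcripts that pair with it. A microRNA finds most of its sites through its seed, the bases near its 5′ end, while an siRNA is designed to pair along its whole length. PIK3R1 and PIK3R3, named by the siRNA labels, encode regulatory subunits of phosphoinositide 3-kinase (PI3K), which acts downstream of growth factor receptors. The probes described here have higher processed values in the combinations, and such a value also depends on how the array was scaled. How they relate to the targets of the transfected RNAs was not tested.

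The files and reference tables used here pair no probe with a gene, so the 181 probes are described by their values and not by gene. The knockdown of PIK3R1 and PIK3R3, the markers of squamous epithelium and the pathway lists were not analysed here for the same reason. The mature sequences of miR-181a and miR-181b are shown because, among the 4 single microRNAs, the number of chosen probes above the control differed most between these 2. They come from RefSeq (GRCh38.p14), the seed (bases 2 to 8) is in capitals, and the labels do not say which arm was transfected. The 5p arms share their seed and 20 of 23 bases, while the 3p arms have different seeds.
hsa-miR-181a-5p: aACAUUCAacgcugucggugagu
hsa-miR-181b-5p: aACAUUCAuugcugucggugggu
hsa-miR-181a-3p: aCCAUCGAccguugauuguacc
hsa-miR-181b-3p: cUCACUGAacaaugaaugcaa
On the minus strand of chromosome 1, MIR181A1 gives the 5p arm at chr1:198859108-198859130 and the 3p arm at chr1:198859069-198859090. On the same strand MIR181B1 gives the 5p arm at chr1:198858925-198858947 and the 3p arm at chr1:198858887-198858907. A further copy of each gene, on chromosome 9, gives the same 5p arm.

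Both combination arrays were dimmer than the others, and this bears on every value below. The mean raw signal was 223 on the siRNA combination array and 270 on the miRNA combination array, against 343 to 468 on the 7 remaining arrays. On each array the authors' values were a linear function of raw signal, with 1 unit of raw signal worth 1.73 units on the siRNA combination array and 1.39 on the miRNA combination array, against 0.766 to 1.14 on the others. Next after the combinations came siPIK3R1 (1.14) and miR-181b (1.06). Each array detected between 14304 and 15775 probes, and its lowest detected value lay between 30.8 and 49.4 units of processed intensity, above the floor of 16. A value under that limit is therefore only a bound.

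The 181 probes were dim outside the combinations and of middling brightness in them. The gap between the combinations and the other arrays is made by the choice of probes. Their median processed intensity was 107 in the siRNA combination and 110 in the miRNA combination. Among the single siRNAs the median was 43.8 for siPIK3R1 and 25.5 for siPIK3R3, and among the single microRNAs 42.7 for miR-181b, 29.5 for miR-181a, 34.7 for miR-455 and 27.5 for miR-32, against 27.4 in the negative control. Between these arrays, miR-181b and siPIK3R1 had the highest medians after the combinations. Over all 19006 probes tested, the medians were nearly level, from 140 in the siRNA combination and 151 in the miRNA combination to 159 in miR-455, with 149 in the control. Even in the combinations the 181 probes thus had medians below those of all tested probes.

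**Figure D1:**
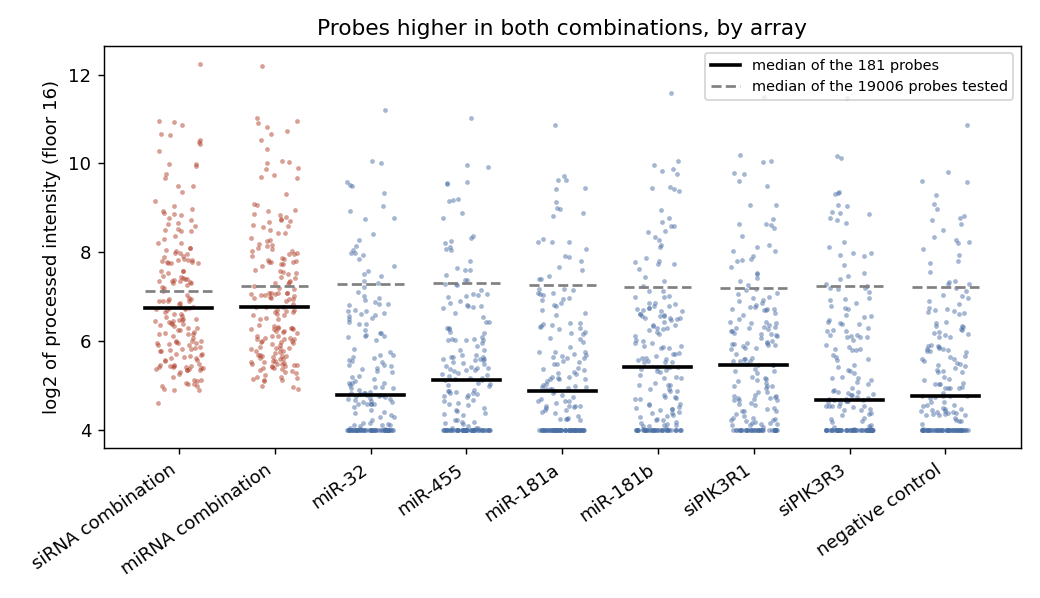
Log2 processed intensity (floor 16) of each of the 181 probes on each of the 9 arrays; points are probes, the solid bar is their median and the dashed bar the median of all 19006 probes tested. The probes' medians on the siRNA and miRNA combination arrays (107 and 110 units) lie just under the dashed bars, while those on the other 7 arrays (25.5 to 43.8 units) lie far under them. The gap between the combinations and the other arrays is made by the choice of probes.

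The fold over the control, which the choice of probes makes large, had a median of 2.82 in the siRNA combination and 3.00 in the miRNA combination. It was at least 2-fold for 161 of the 181 probes in the siRNA combination and for 167 in the miRNA combination. The share of all probes tested was not counted at 2-fold, so these counts have no share to be set against. At the lower threshold of 1.5-fold, 19.7% of all probes tested were higher than the control in the siRNA combination and 20.5% in the miRNA combination. All 181 are higher at 1.5-fold by choice, and nothing is read from that. The margin itself was mostly small, with a median of 1.74-fold. Of the 19006 probes tested, the siRNA combination taken singly stood 1.5-fold over all 7 arrays that are not combinations at 574. The miRNA combination did so at 451. The 181 are 31.5% of the siRNA and 40.1% of the miRNA combination's probes, and 0.952% of all probes tested. Both lists are set against the same 7 arrays, so nothing is read from their overlap. The margin was under 2-fold for 135 probes, at least 2-fold for 46 (0.242% of all tested) and at least 4-fold for 5.

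The choice took in few bright probes. Over the 7 remaining arrays, the median level of a chosen probe had quartiles of 13.8, 30.6 and 78.2 units, against 43.2, 153 and 539 units for all probes tested. With the tested probes cut into 4 equal classes by this level, 107 of 4752 were chosen in the dimmest class (2.25%), 49 of 4751 in the next (1.03%), 17 of 4751 in the one after (0.358%) and 8 of 4752 in the brightest (0.168%). The share was smaller at each step in brightness. This level is taken from the same 7 arrays that the choice requires to lie under the combinations. The order of the shares is therefore partly set by the choice, and nothing is read from it. The lower quartile and the median of the chosen probes, 13.8 and 30.6 units, also lie under the detection limits of 30.8 to 49.4 units.

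The siRNA combination array detected 166 of the 181 probes (91.7%) and the miRNA combination array 171 (94.5%), against 68 in siPIK3R3 to 86 in miR-455 on the other arrays. Of all tested probes each array detected between 75.3% and 83.0%. The choice asks for higher values on both combination arrays, so the wider detection there is largely set by it, and nothing is read from it. The 181 probes fall into 3 groups by detection outside the combinations. The same split over all tested probes was not counted, and the choice favours probes that are low on these arrays. Nothing is therefore read from the sizes of the groups. In the first, 53 probes (29.3%) were detected on all 7 remaining arrays and on both combination arrays. Their median values were 396 units in the siRNA combination and 394 in the miRNA combination, against 139 in the control, and their median margin was 1.66-fold. In the second, 51 probes (28.2%) were detected on 1 to 6 of the remaining arrays and on both combination arrays, with medians of 124 units in the siRNA combination, 134 in the miRNA combination and 35.4 in the control and a median margin of 1.67-fold. For these 104 probes at least 1 array outside the combinations gives a measured level.

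The third group, of 77 probes (42.5%), was detected on none of the 7 remaining arrays. Of these, 52 were detected on both combination arrays and 25 on 1 of them. All 77 were thus among the tested probes only through a combination array. Their medians were 52.6 units in the siRNA combination and 51.2 in the miRNA combination, against 10.5 in the control. Their median margin of 1.90-fold is the widest of the 3 groups, but it is taken from values under the detection limit. With each undetected value raised to the lowest detected value of its array, 10 of the 77 kept a margin of 1.5-fold, and the median margin became 0.906-fold. By the same measure all 53 probes of the first group and 45 of the 51 of the second kept it.

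**Figure D2:**
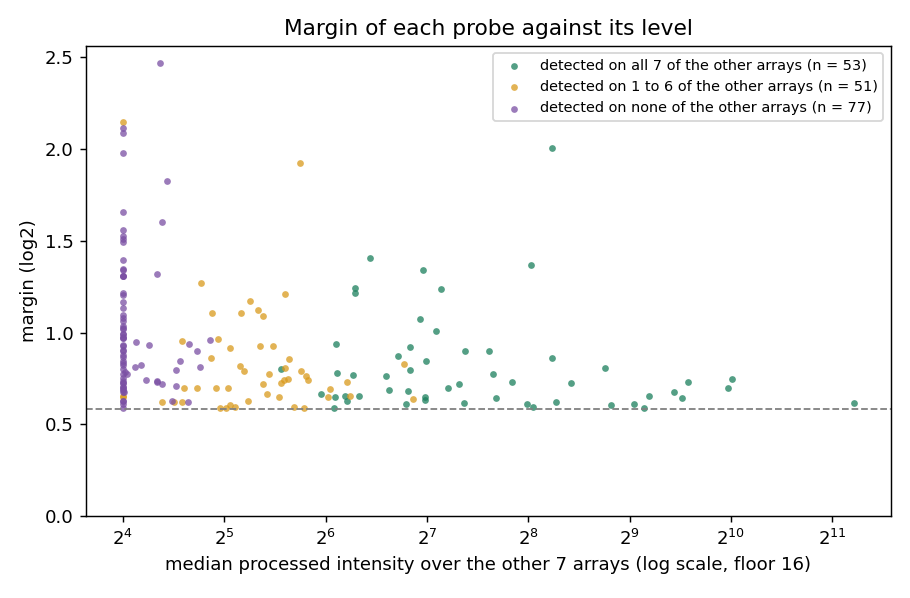
Margin (log2, vertical axis) of each of the 181 probes against its median processed intensity over the 7 arrays that are not combinations (log axis, floor 16); colours give the number of these arrays that detected the probe and the dashed line is the 1.5-fold threshold. Most of the 77 probes detected on none of the 7 arrays lie at the floor of 16, and the widest margin (2.47) belongs to one of them.

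The 2 probes with the widest margins were ILMN_1676385 and ILMN_1702383. ILMN_1676385 had 163 units in the siRNA combination and 275 in the miRNA combination, against 18.6 in siPIK3R1, 10.9 in siPIK3R3, 29.4 in miR-181b, 18.8 in miR-181a, 20.7 in miR-455, 23.9 in miR-32 and 23.7 in the control. It was detected on both combination arrays and on none of the others, so that its margin of 5.53-fold becomes at least 3.29-fold against the detection limits. ILMN_1702383 had 267 units in the siRNA combination and 289 in the miRNA combination, against 60.2 in siPIK3R1, 27.5 in siPIK3R3, 26.3 in miR-181b, 12.4 in miR-181a, 13.1 in miR-455, 14.6 in miR-32 and 15.5 in the control. Only siPIK3R1 of the 7 remaining arrays detected it, and its margin over that array was 4.43-fold.

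Among the 53 probes measured on all 9 arrays, the one with the widest margin ranked 5 of the 181. It had 1983 units in the siRNA combination and 1994 in the miRNA combination, against 434 in siPIK3R1, 480 in siPIK3R3, 493 in miR-181b, 300.4 in miR-181a, 298 in miR-455, 282 in miR-32 and 298 in the control. Both combinations were near each other and 4.02-fold above miR-181b, the highest of the rest, and none of these values lies near a detection limit. The next in this group, ranked 15, had 275 units in the siRNA combination and 347 in the miRNA combination. Its remaining arrays lay between 104 in siPIK3R1 and 81.2 in the control, a margin of 2.65-fold. The one after it, ranked 17, had 1021 units in the siRNA combination and 934 in the miRNA combination, against 225 in miR-455 as the lowest remaining array and 362 in the control as the highest.

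The brightest of the 181 probes had a narrow margin. It ranked 165, with 4820 units in the siRNA combination and 4715 in the miRNA combination, against 1867 in miR-181a to 3071 in miR-181b among the single agents and 1856 in the control. All 6 single agents here lay between the control and the combinations.

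A pair of probes stood apart from the rest by the size of their change from the control. The probe ranked 153 had 1611 units in the siRNA combination and 1069 in the miRNA combination, against 117 in siPIK3R1, 302 in siPIK3R3, 686 in miR-181b, 85.3 in miR-181a, 181 in miR-455, 83.6 in miR-32 and 18.6 in the control. The probe ranked 80 had 989 units in the siRNA combination and 956 in the miRNA combination, against 110 in siPIK3R1, 538 in siPIK3R3, 223 in miR-181b, 53.8 in miR-181a, 154 in miR-455, 103 in miR-32 and -9.95 in the control. Neither was detected in the control, and both lay above the floor on each of the other 8 arrays, highest in the combinations. These 2 were picked after their values were seen. Their high values were therefore not confined to the combinations, although the choice of probes admits them.

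The choice of probes did not fix which combination was higher. The siRNA combination was higher for 77 probes (42.5%) and the miRNA combination for 104, and the median siRNA minus miRNA difference was -0.04 on the log2 scale. Over all probes tested the siRNA combination was higher for 40.1%, with a median difference of -0.08. The siRNA combination was at least 1.5-fold above the miRNA combination for 14 of the 181 probes, where 9.57% of all tested probes were, and at least 1.5-fold below it for 17, where 13.9% were. The other 150 (82.9%) lay within 1.5-fold, against 76.6% of all tested probes. The choice requires both arrays to be high, so this closeness is partly set by it.

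The choice treats the 7 remaining arrays alike, so their order among themselves is not set by it, although it caps all of them. Set against the control, miR-181b was at least 1.5-fold higher for 50 of the 181 probes (27.6%), against 15.8% of all tested probes. It was at least 1.5-fold lower for 6 (3.31%), against 13.0%. For siPIK3R1, 53 of the 181 probes (29.3%) were higher, against 19.3% of all tested probes, and 3 (1.66%) were lower, against 15.3%. In both arrays the probes therefore leaned upward, with median log2 differences from the control of 0.20 and 0.19, against 0.03 and 0.00 over all tested probes.

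The shares in the other single agents lay nearer to those of all tested probes. For miR-181a, 13 of the 181 probes were higher (7.18%, against 9.02% of all tested probes) and 12 lower (6.63%, against 8.73%). For miR-32, 15 were higher (8.29%, against 6.90%) and 14 lower (7.73%, against 8.32%). For miR-455, 21 were higher (11.6%, against 8.51%) and 12 lower (6.63%, against 7.05%). For siPIK3R3, 18 were higher (9.94%, against 12.5%) and 20 lower (11.0%, against 15.4%). The median difference from the control was 0.00 on the log2 scale for each of these 4, where many probes lay at the floor on both arrays.

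**Figure D3:**
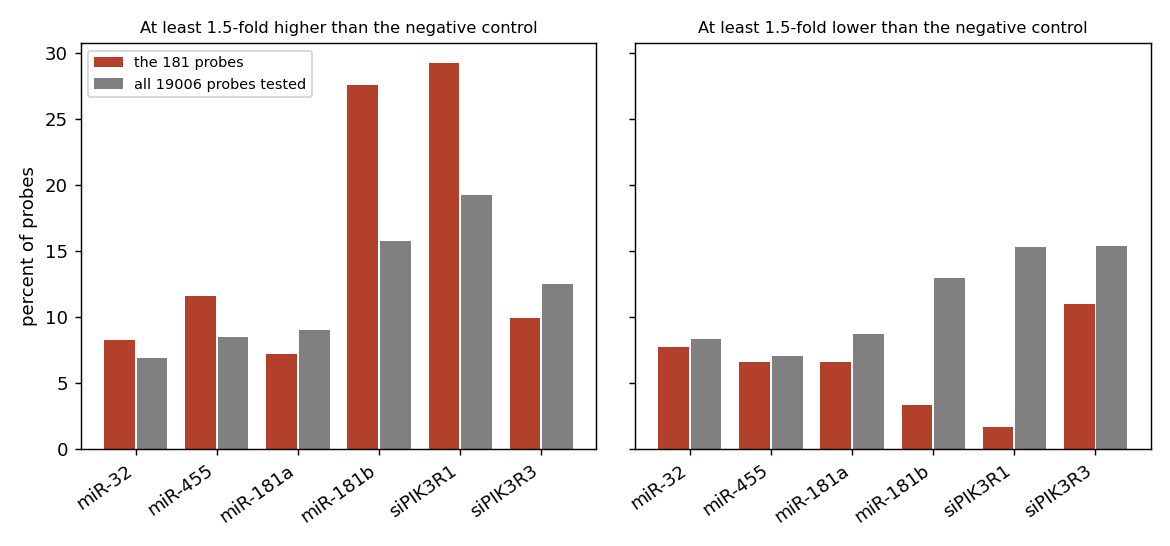
Percent of the 181 probes (left bar of each pair) and of all 19006 probes tested (right bar) that were at least 1.5-fold higher (left panel) or lower (right panel) than the negative control in each single-agent array. The 181 probes exceed all tested probes most in miR-181b (27.6% against 15.8%) and siPIK3R1 (29.3% against 19.3%), and are lower there in 3.31% and 1.66%.

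The lean was also present where both arrays measured the probe. Of 68 chosen probes detected in both miR-181b and the control, 17 were at least 1.5-fold higher, where 10.4% of all 13486 probes so detected were, and 1 (1.47%) was lower, against 10.1%. Of 67 detected in both siPIK3R1 and the control, 17 (25.4%) were higher, against 15.0% of all 13455, and 0 were lower, against 13.2%. For miR-181a, which shares its 5p seed with miR-181b, 2 of 63 were higher (3.17%, against 5.69%). All 6 comparisons share the 1 control array, and siPIK3R1 and miR-181b also had the strongest scaling of the 7 arrays, 1.14 and 1.06. Without any scaling or background correction 11 of the 181 probes were higher in miR-181b (6.08%, against 2.38% of all tested) and 7 in siPIK3R1 (3.87%, against 2.73%).

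Of the 181 probes, 78 (43.1%) were at least 1.5-fold above the control in at least 1 single agent, against 37.6% of all tested probes, and 103 in none. In both miR-181b and siPIK3R1, 33 were higher (18.2%), against 8.84%. In 4 or more single agents, 9 were (4.97%), against 4.45%. For 167 probes at least 1 of the 7 remaining arrays lay over the floor, and the highest of them was siPIK3R1 for 54 and miR-181b for 44, together 58.7% against 39.5% of all tested probes. For most of these probes the margin is thus a distance to one of these 2 arrays. Without the siPIK3R1 array the same rule would keep 346 probes instead of 181, and without the miR-181b array 263.

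**Figure D4:**
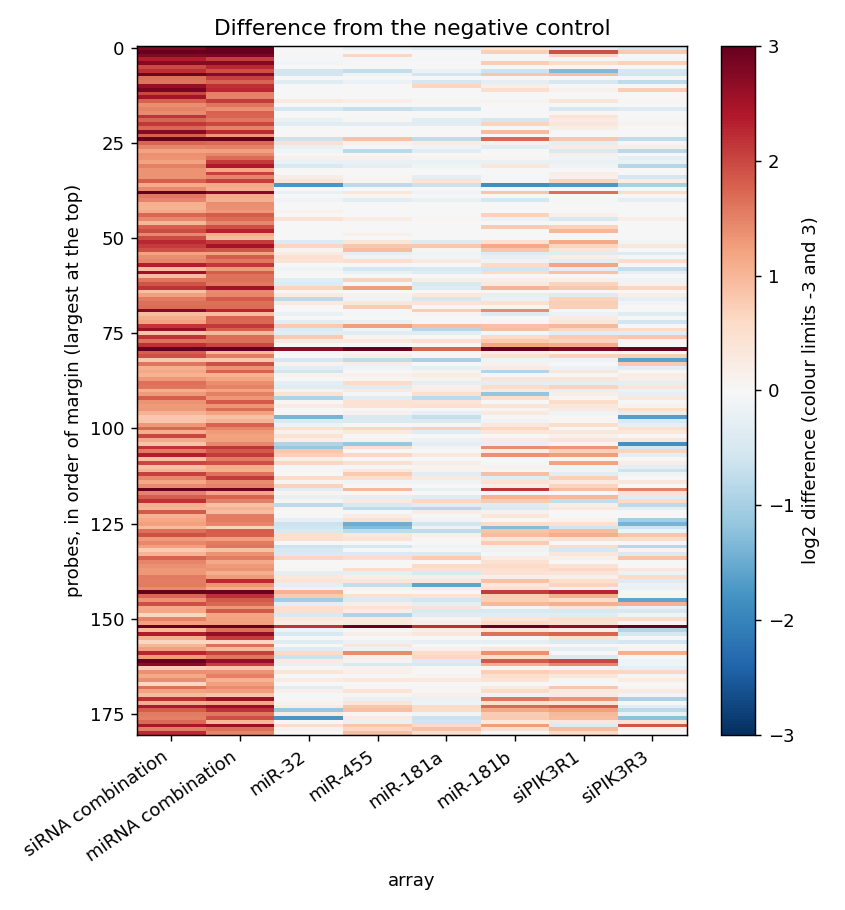
Log2 difference from the negative control of each of the 181 probes (rows, in order of margin, the largest at the top) in the 2 combinations and the 6 single agents (columns); red is higher and blue lower than the control. Both combination columns are red throughout by choice, miR-181b and siPIK3R1 are more often red than blue (50 against 6 and 53 against 3 probes past 1.5-fold), and 2 rows, ranked 80 and 153, are past 1.5-fold in every column.

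How many of the 181 probes stood out depended on the processing of the arrays. In raw signal, with no background correction and no scaling, 22 of the 181 were higher in both combinations than on every other array. By 1.5-fold, 3 were so, the probes ranked 2, 5 and 7 by margin. This setting leaves out both steps at once. With quantile normalization of the processed values 173 of the 181 were kept, and with median scaling 176. With neqc, which corrects the background and gives all arrays the same distribution, all 181 remained higher, and 46 kept 1.5-fold among the 53 probes detected on all arrays. The reverse set, of probes at least 1.5-fold lower in both combinations than in every other array, held 334 probes (1.76%). In raw signal all 334 were lower in both combinations than on every other array. The dimmer raw signal of the combination arrays favours that direction, so nothing is read from it. Of the 181 probes 53 were detected on all 9 arrays, against 241 of the 334. The reverse rule requires the 7 remaining arrays to lie over the floor, while the rule of the 181 does not. This difference in detection is therefore partly set by the rules, and nothing is read from it. With neqc 120 of the 181 kept 1.5-fold, against 218 of the 334.

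The margin of single probes near the threshold shows how the boundary runs. The 3 chosen probes nearest to it had margins of 1.502-fold, 1.503-fold and 1.505-fold, and the 3 nearest probes left out had 1.498-fold, 1.497-fold and 1.497-fold. The nearest chosen probe had 75.6 units in the siRNA combination and 44.3 in the miRNA combination, against 29.5 in miR-455, the highest of the rest. The nearest probe left out had 208 units in the siRNA combination and 196 in the miRNA combination, against 131 in miR-181b. Of these 2, the probe left out is the brighter.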

How the data were processed

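Per the file headers, the deposited raw table gives 1 intensity and 1 detection p-value for each of 47317 probes on each of 9 arrays. Within each array the p-value never went up with signal, which checks that the p-value column belongs to the signal column before it. The authors' processed intensity table is linear, and some values are negative. The sources used here do not describe how it was made. Groups were taken from the sample titles, with 1 array per group, so a rule of size replaced tests, and the number of arrays limits the precision. Processed values were floored at 16 and put on the log2 scale. The lists of genes, the markers and the comparison of further probes of the same gene were not analysed here, because no probe has a gene name, and naming was limited to the 2 probes of widest margin. The members, the lists and the tests were chosen with earlier results of these data known. The choice of probes was tested on simulated data. Alternatives were neqc of limma 3.58.1 (R 4.3.3, offset 16), raw intensity, quantile and median scaling, a floor of 50, other detection limits and a 2-fold margin. Further ones were chosen after seeing the data: detection limits in place of undetected values, and leaving out arrays. Python 3.11.15, numpy 2.4.6, pandas 2.3.3 and matplotlib 3.10.9 were used.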

Additional observations from a re-analysis of the deposited data

How the results depend on the processing

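No paired analysis was possible because no group holds a second array. The comparison of further probes of the same gene was not run, since no probe has a gene name. The number of probes chosen, 181, was 132 with neqc (120 of them shared), 221 with quantile normalization, 212 with median scaling, 211 at a detection p under 0.05 and 156 with detection on both combination arrays. It was 3 in raw intensities, 108 with a floor of 50, 108 with undetected values at the detection limit and 46 at 2-fold. Leaving out 1 of the 7 other arrays gave 189 to 346, the highest without siPIK3R1. Leaving an array out can only add probes. The median margin of 0.80 (log2) was 0.652 with neqc, 0.621 with a floor of 50, 0.622 at the detection limit and -0.31 in raw intensities, where the combination arrays are dimmer. The median siRNA minus miRNA difference of -0.036 was -0.273 in raw intensities and -0.027 at the detection limit. It was 0.028 with neqc, 0.033 with quantile normalization, 0.047 with median scaling and 0.0 with a floor of 50. Its sign therefore depended on the processing. Summed over the 6 single agents, 170 calls over the control became 83 with neqc, 34 in raw intensities, 72 with a floor of 50 and 83 at the detection limit, and 67 calls below it became 34, 10, 16 and 27. In miR-181b and siPIK3R1 the share of higher probes was above that of all tested probes in these settings and with quantile and median scaling. A median within 0.1 on the log2 scale, or a count within 1.5 times, was taken as unmoved, which held for 22 of the 40 alternative values of these results. Of 72 alternative values of the counts for each single agent, 25 were unmoved, 45 lower and 2 higher.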
